A study of Mus musculus with 6 samples.

Results

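The genes described here are the 10 genes of fatty acid synthesis, desaturation and elongation, Acaca, Fasn, Scd1, Scd2, Fads1, Fads2, Elovl2, Elovl5, Elovl6 and Elovl7. They were chosen by symbol from the 57127 genes listed for whole epididymis of adult mice, and all 10 were abundant enough to be tested, as were 19691 genes in all. The study compared wild-type C57BL/6 mice (WT) with mice lacking the tight junction protein occludin (Ocln-/-, called Ocln-KO), the offspring of heterozygous parents. Each genotype had 3 libraries of rRNA-depleted RNA, 6 in all. The methods speak both of separate extraction from pairs of mice and of pooled RNA, so n counts libraries, and p-values measure the spread between libraries. An extraction note in the sample records names prefrontal cortex, whereas the tissue field names the epididymis.

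Fatty acids are built in the cytosol from malonyl-CoA, which acetyl-CoA carboxylase makes and fatty acid synthase extends to palmitate. Stearoyl-CoA desaturases then place a double bond in the saturated chain, and the Elovl enzymes lengthen chains by malonyl-CoA, each preferring saturated, monounsaturated or polyunsaturated substrates. Front-end desaturases and elongases together make the long polyunsaturated fatty acids in which sperm membranes are rich.

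The libraries held between 30646424 and 38870780 counts. Levels are given as CPM, the counts of a gene relative to library size, scaled with edgeR's TMM factors, under which 3 counts, taken as the limit of detection, equal between 0.0802 and 0.0942 CPM. Ocln measured 85.9, 78.8 and 91.8 CPM in WT libraries, against 15.1, 15.3 and 14.9 CPM in Ocln-KO, with no overlap. The quasi-likelihood test of edgeR gave a log2 fold change of -2.50, with a standard error (SE) of 0.09 and a p of 0.000108 after adjustment over all genes by the Benjamini-Hochberg method. Crisp1, a secreted protein of the epididymal epithelium, was abundant in each library, with 16768, 12488 and 15417 CPM for WT and 9957, 9160 and 4439 CPM for Ocln-KO. On the first principal component of log2 CPM, which held 47.2% of the variance, Ocln-KO replicate 3 lay at -86.3 and the other Ocln-KO libraries at -17.7 and -29.1, against 37.0 to 52.8 in WT. Each member's log2 fold change is therefore also given without Ocln-KO replicate 3, and that of Ocln was then -2.49. With 3 libraries against 3, an exact two-sided permutation test cannot give a p under 0.1, and none is printed for single genes.

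Elovl6 was the 1 member of 10 that fell at an adjusted p under 0.05, the threshold for a call, against 5.04% of all genes tested. No member was called higher, against 3.91% of all genes, and none was lower at a fold change under 0.5 as well, against 1.7%. In 8 members all WT libraries were higher than all Ocln-KO libraries, as in 19.4% of all genes, and in no member was the reverse seen, as it was in 16.9% of all genes. The exceptions were Acaca and Fads2, whose genotypes overlapped. The median log2 fold change was -0.45 over the members and 0.01 over all genes tested. An unadjusted p under 0.05 was reached by 7 members, all lower in Ocln-KO, as by 15.2% of all genes in that direction. Fasn, Scd1, Scd2 and Elovl2 had adjusted p-values between 0.0512 and 0.0592 in edgeR, so that the number called depended on the tool. DESeq2 called 6 members lower (8.68% of all genes) and limma-voom 5 (5.33%), and neither called a member higher. Without Ocln-KO replicate 1 edgeR called Scd1, Scd2, Elovl2, Elovl6 and Elovl7 lower (4.3% of all genes), without Ocln-KO replicate 2 Elovl6 (1.68%), and without Ocln-KO replicate 3 Scd1, Elovl2 and Elovl6 (4.63%). Without WT replicate 1, 2 or 3 edgeR called 0 members, when 0.0935%, 0.714% and 0.197% of all genes were called lower.

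**Figure D1:**
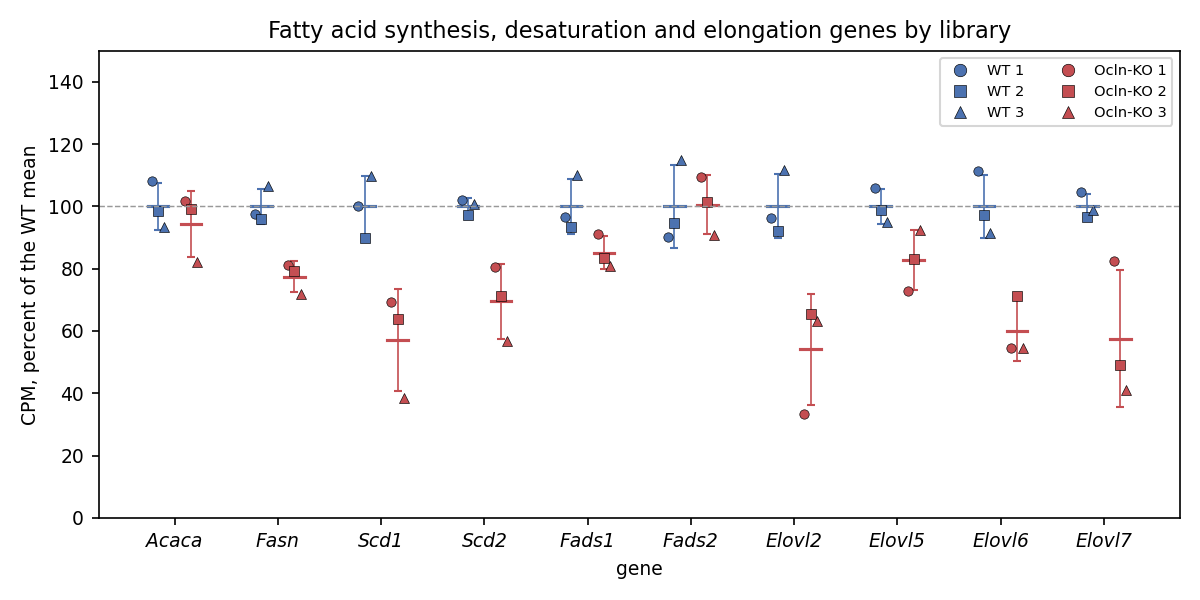
CPM of each gene in each library as a percentage of the WT mean of that gene (vertical axis), by gene (horizontal axis), for WT (blue) and Ocln-KO (red). Symbols mark replicates 1 (circle), 2 (square) and 3 (triangle), bars the mean and whiskers 1 SD over 3 libraries. The genotypes overlap for Acaca and Fads2 and are apart for the other 8 genes.

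The members' summed level was 5624, 5364 and 5812 CPM in the WT libraries and 4503, 4224 and 3516 CPM in the Ocln-KO libraries. Scd2 made up between 43.0% and 48.5% of that sum in each library. Taking each gene as a percentage of its WT mean, the median over the 10 members was 80.9%, 75.2% and 67.5% in Ocln-KO replicates 1, 2 and 3. Of the Ocln-KO libraries, replicate 3 was the lowest for 8 members and replicate 1 for the other 2, Elovl2 and Elovl5. In whole tissue, fewer cells of a type and less RNA per cell cannot be told apart.

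Of the promoters, those of Fasn, Elovl2 and Elovl6 are shown, as examples from synthesis and elongation picked after the values and matches were seen. The RefSeq promoter sequences (GRCm38.p6, 250 bases before to 50 after a start site) held 8 windows for 7 of the 10 members, with no entry for Scd1, Scd2 and Fads1. They were searched on both strands for TCACNCCAC (a form of the sterol regulatory element), CACGTG (E-box), CCAAT and GGGCGG (GC box), and capitals mark matches. The windows shown are Fasn, from within the annotated gene, at chr11:120824498-120824797 and the first of the 2 windows of Elovl2 at chr13:41220354-41220653, both on the minus strand, and Elovl6 at chr3:129532136-129532435 on the plus strand.
Fasn: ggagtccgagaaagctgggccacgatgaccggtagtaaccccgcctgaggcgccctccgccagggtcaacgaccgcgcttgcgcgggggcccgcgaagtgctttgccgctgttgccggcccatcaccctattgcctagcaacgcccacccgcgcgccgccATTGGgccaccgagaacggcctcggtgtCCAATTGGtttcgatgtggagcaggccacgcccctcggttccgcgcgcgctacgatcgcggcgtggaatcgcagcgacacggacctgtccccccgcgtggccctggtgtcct
Elovl2: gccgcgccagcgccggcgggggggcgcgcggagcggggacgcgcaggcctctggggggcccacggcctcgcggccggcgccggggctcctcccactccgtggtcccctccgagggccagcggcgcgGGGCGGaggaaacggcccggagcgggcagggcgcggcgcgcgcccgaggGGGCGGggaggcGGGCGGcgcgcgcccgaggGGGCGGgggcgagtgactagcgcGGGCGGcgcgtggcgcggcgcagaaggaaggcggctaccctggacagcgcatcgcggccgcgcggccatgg
Elovl6: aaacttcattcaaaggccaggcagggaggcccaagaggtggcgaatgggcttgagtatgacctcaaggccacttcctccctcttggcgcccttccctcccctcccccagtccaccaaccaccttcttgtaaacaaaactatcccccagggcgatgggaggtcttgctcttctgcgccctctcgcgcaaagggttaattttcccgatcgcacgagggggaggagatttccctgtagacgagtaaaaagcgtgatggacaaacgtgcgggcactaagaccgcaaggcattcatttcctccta
The Fasn window held 3 CCAAT matches, of which the pair from -62 to -55 overlap on opposite strands, and the first Elovl2 window held 5 GC boxes. The second Elovl2 window, at chr13:41220113-41220412 on the minus strand, and the Elovl6 window held none of the 4 motifs. The sterol regulatory element form was in 0 of the 7 members and in 1.24% of the 32851 promoters of the table. The E-box was in 1 member, Elovl5 (7.15% of all promoters), CCAAT in 2, Fasn and Elovl5 (37.4%), and the GC box in 3, Fads2, Elovl2 and Elovl7 (35.7%). The start site of the Acaca window lies 65.8 kb inside the annotated gene and that of the Fasn window 619 bases inside it, so that the sequence at the annotated 5' ends of these 2 genes was not searched. A match describes letters in these windows and not a bound site.

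Synthesis begins with Acaca, the acetyl-CoA carboxylase that supplies malonyl-CoA (chromosome 11, from 84129635 to 84401651). Acaca measured 111, 101 and 95.7 CPM in WT libraries, against 104, 102 and 84.2 CPM in Ocln-KO. The genotypes overlapped, with Ocln-KO replicate 3 below the other libraries. In edgeR it had a log2 fold change of -0.08 (SE 0.11, adjusted p = 0.661). Without Ocln-KO replicate 3 it was 0.01, so that its direction rested on that library.

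Fasn, the multifunctional synthase that makes palmitate (chromosome 11, from 120805958 to 120825166), had 1005, 988 and 1095 CPM in WT. It had 836, 815 and 739 CPM in Ocln-KO. The genotypes did not overlap, and the means were 1029 ± 57.8 and 797 ± 51.3 CPM (SD, n = 3). The log2 fold change of -0.37 (standard error 0.10) missed the threshold in edgeR (adjusted p = 0.0582) and passed it in DESeq2 (0.00749) and limma-voom (0.0406). Without Ocln-KO replicate 3 it was -0.32. The ratio of Acaca counts to Fasn counts, which needs no scaling and was computed after the data were seen, was 0.110, 0.102 and 0.0873 in WT and 0.125, 0.125 and 0.114 in Ocln-KO. It was higher in each Ocln-KO library than in each WT library, a description with no test.

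Desaturation of saturated chains is carried out by Scd1 and Scd2, paralogs 87.6 kb apart on chromosome 19. Reads that fit more than 1 paralog could have been shared or dropped in counting, so that their separate levels are uncertain. Scd2, the most abundant member, measured 2727, 2593 and 2686 CPM in WT libraries, against 2152, 1899 and 1512 CPM in Ocln-KO. No Ocln-KO library reached the lowest WT library, and the Ocln-KO libraries were spread more widely, with an SD of 322 against 68.7 CPM. In edgeR it had a log2 fold change of -0.53 (SE 0.14, adjusted p = 0.0592), with 0.00466 from DESeq2 and 0.0437 from limma-voom. Without Ocln-KO replicate 3 it was -0.40, and without Ocln-KO replicate 1 it was -0.64 and called (adjusted p = 0.0328 from edgeR).

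Scd1 measured 515, 463 and 564 CPM in WT libraries, against 356, 328 and 198 CPM in Ocln-KO. The genotypes did not overlap, and Ocln-KO replicate 3 was well below the other 2 Ocln-KO libraries. The edgeR estimate was a log2 fold change of -0.81 (SE 0.21, adjusted p = 0.0512), with 0.00198 from DESeq2 and 0.0451 from limma-voom. Without Ocln-KO replicate 3 the change was smaller, at -0.59, and it was called (adjusted p = 0.0220 from edgeR). The ratio of Scd1 counts to Scd2 counts was 0.189, 0.178 and 0.210 in WT and 0.165, 0.172 and 0.131 in Ocln-KO. It was lower in each Ocln-KO library than in each WT library, by a narrow margin for Ocln-KO replicate 2.

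The front-end desaturases of polyunsaturated chains, Fads1 (delta-5) and Fads2 (delta-6), lie 81.4 kb apart on chromosome 19. Fads1 measured 406, 393 and 464 CPM in WT libraries, against 384, 351 and 340 CPM in Ocln-KO. Its genotypes were apart by less than the spread within WT. The edgeR estimate was a log2 fold change of -0.23 (SE 0.10, adjusted p = 0.175), and -0.20 without Ocln-KO replicate 3. Fads2 measured 344, 362 and 439 CPM in WT libraries, against 418, 388 and 346 CPM in Ocln-KO, and the genotypes covered the same range. In edgeR it had a log2 fold change of 0.01 (SE 0.12, adjusted p = 0.972), and the sign turned without WT replicate 1, WT replicate 2 or Ocln-KO replicate 1. Without Ocln-KO replicate 3 it was 0.08. The ratio of Fads1 counts to Fads2 counts was 1.18, 1.09 and 1.06 in WT and 0.918, 0.905 and 0.983 in Ocln-KO. It was lower in each Ocln-KO library than in each WT library, again a description with no test.

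Elovl6 extends saturated and monounsaturated chains of palmitate length (chromosome 3, from 129532386 to 129638495). It measured 324, 283 and 266 CPM in WT libraries, against 159, 207 and 158 CPM in Ocln-KO. The genotypes did not overlap, with Ocln-KO replicate 2 nearest to WT. It fell by 0.73 in log2 units (SE 0.13, edgeR adjusted p = 0.0243), from 291 ± 29.7 to 175 ± 28.2 CPM (SD, n = 3). The call was kept without any 1 of the Ocln-KO libraries and lost without WT replicate 1, 2 or 3, with adjusted p-values between 0.0692 and 0.104 from edgeR and log2 fold changes between -0.79 and -0.65. DESeq2 and limma-voom also called it, and without Ocln-KO replicate 3 its log2 fold change was -0.67. With the replicate number as a block Elovl6 was not called (adjusted p = 0.0821 from edgeR). The ratio of Elovl6 counts to Fasn counts, 0.322, 0.286 and 0.243 across WT against 0.190, 0.255 and 0.215 across Ocln-KO, overlapped between genotypes. That of Elovl6 to Elovl5 was lower in each Ocln-KO library, at 3.34, 3.83 and 2.63 against 4.69, 4.38 and 4.29.

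Elovl2 and Elovl5 elongate polyunsaturated chains, Elovl2 the longer ones. Elovl2 measured 111, 107 and 129 CPM in WT libraries, against 38.7, 76.0 and 73.3 CPM in Ocln-KO. The genotypes did not overlap, and Ocln-KO replicate 1 stood below the other Ocln-KO libraries. In edgeR it had a log2 fold change of -0.89 (SE 0.24, adjusted p = 0.0566), with 0.00309 from DESeq2 and 0.0478 from limma-voom. Without Ocln-KO replicate 1 it was -0.63 (adjusted p = 0.0283 from edgeR), and without Ocln-KO replicate 3 it was -1.01 (0.0428). Elovl5 measured 69.05, 64.5 and 62.0 CPM in WT libraries, against 47.5, 54.2 and 60.2 CPM in Ocln-KO. The highest Ocln-KO library, replicate 3, came close to the lowest WT library. In edgeR it had a log2 fold change of -0.27 (SE 0.11, adjusted p = 0.141), and -0.36 without Ocln-KO replicate 3. The ratio of Elovl2 counts to Elovl5 counts was 1.61, 1.65 and 2.09 in WT and 0.815, 1.40 and 1.22 in Ocln-KO, lower in each Ocln-KO library.

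Elovl7, an elongase of saturated and polyunsaturated chains, was the member with the fewest counts, between 145 and 410 in a library. It measured 10.96, 10.1 and 10.4 CPM in WT libraries, against 8.63, 5.15 and 4.29 CPM in Ocln-KO. WT libraries were close together and above all 3 Ocln-KO libraries, which were spread over a 2-fold range. In edgeR it had a log2 fold change of -0.80 (SE 0.26, adjusted p = 0.0924), and it was -0.61 without Ocln-KO replicate 3. Without Ocln-KO replicate 1 it was -1.15 and called (adjusted p = 0.0223 from edgeR). The ratio of Elovl7 counts to Elovl6 counts overlapped, with 0.0338, 0.0357 and 0.0390 across WT against 0.0544, 0.0248 and 0.0271 across Ocln-KO. The 7 count ratios given here are those computed, and no share over other gene pairs was computed. Elovl7 lies 7.7 Mb from Ocln on chromosome 13, and Elovl2 lies 59.3 Mb from it. Whether sequence around the targeted locus differs between the genotypes was not tested.

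**Figure D2:**
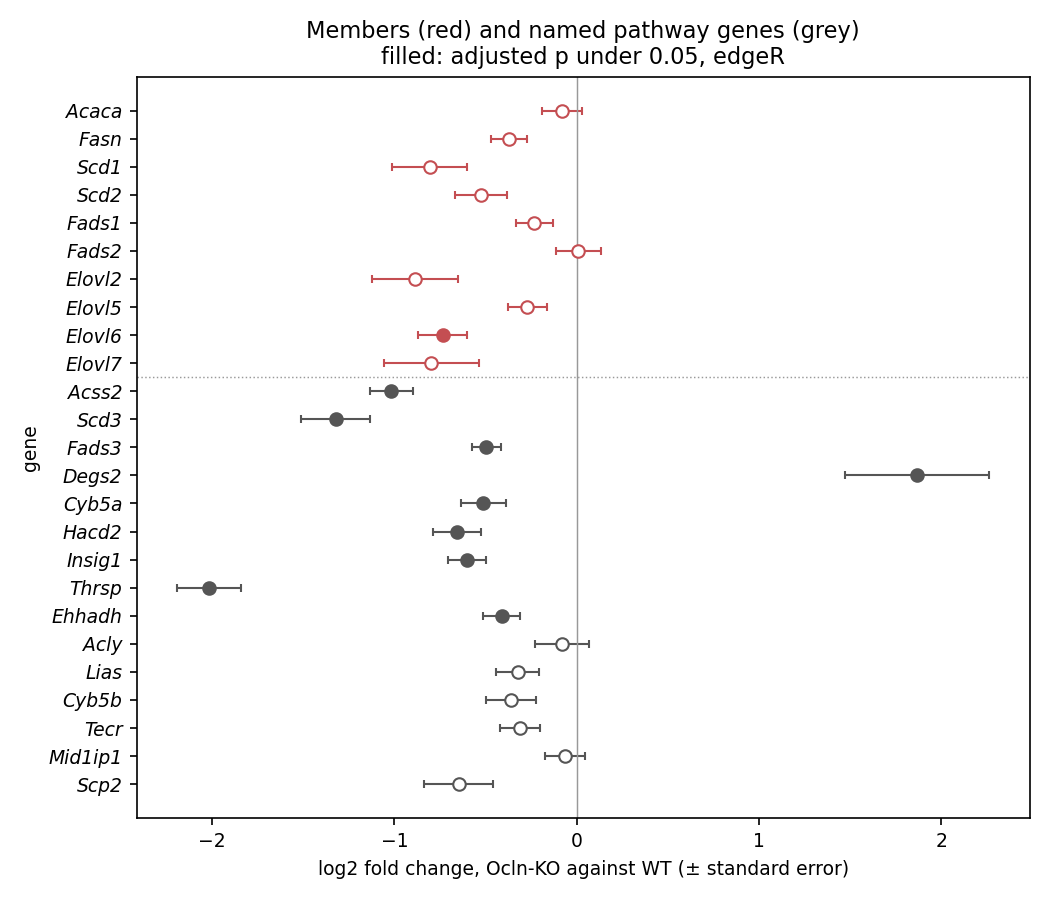
Log2 fold change of Ocln-KO against WT (horizontal axis) with its standard error from edgeR (whiskers) for the 10 members (red) and the named genes of the other pathway lists (grey), 3 libraries of each genotype. Filled points have an adjusted p under 0.05. Of the members, Elovl6 at -0.73 is filled, and Fads2 at 0.01 lies at no change.

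Per kb of annotated exon in WT, the order of levels was Scd2 with 488 CPM per kb, Fads2 with 116, Scd1 with 105, Fasn with 94.0, Fads1 with 87.5, Elovl6 with 45.2, Elovl2 with 29.2, Elovl5 with 18.5, Acaca with 6.00 and Elovl7 with 2.61. Ranges over the WT libraries overlapped between Fads2 and Scd1, between Scd1 and Fasn, between Scd1 and Fads1, and between Fasn and Fads1. The lengths are unions of the exons of all annotated transcripts, which understates the level of a gene with long rare exons. In Ocln-KO the means were 60.1 CPM per kb for Scd1, 74.5 for Fads1 and 72.8 for Fasn, and the ranges of these 3 genes overlapped.

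Of the 62 other genes of the pathway, 58 were tested, and edgeR called 8 lower and 1 higher (5.04% and 3.91% of all genes), with a median log2 fold change of -0.22. In 28 of them all WT libraries were higher than all Ocln-KO libraries, and in 3 the reverse held (19.4% and 16.9% of all genes). Hsd17b8 was not matched by symbol, and Elovl3 and Tecrl were at 0 counts throughout, and Slc25a1, the mitochondrial citrate carrier, had too few counts to be tested. The most abundant gene of a list is here the one with the highest mean CPM over all 6 libraries, whatever its length. Of 14 alternatives, the call held in 14 for Thrsp, 11 for Acss2 and Scd3, 10 for Fads3 and Insig1, 9 for Hacd2, 8 for Degs2, 7 for Cyb5a and 6 for Ehhadh. It was lost without Ocln-KO replicate 3 for Cyb5a (adjusted p = 0.0596 from edgeR), whereas the other 8 were called without that library. Of the carbon and NADPH supply genes, 1 of 9 tested was called. Acss2, which makes acetyl-CoA from acetate, fell from 30.8 ± 2.26 to 15.2 ± 1.41 CPM (SD, n = 3), a log2 fold change of -1.02 (adjusted p = 0.00863 from edgeR). Acly, the citrate lyase that is the most abundant gene of that list, had 1163 ± 61.3 and 1102 ± 205 CPM and was not called (adjusted p = 0.769 from edgeR). Of the mitochondrial fatty acid synthesis genes, 0 of 7 were called by edgeR, DESeq2 or limma-voom. In edgeR 3 were lower at an unadjusted p under 0.05 (15.2% of all genes), with log2 fold change -0.32 for Lias, the most abundant.

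Among other desaturases and their electron donors, edgeR called 3 of 9 lower and 1 higher (5.04% and 3.91% of all genes). DESeq2 called 5 lower and 1 higher and limma-voom 3 and 0, against 8.68% and 5.33% of all genes called lower. Scd3, a further stearoyl-CoA desaturase, measured 20.6, 18.0 and 21.3 CPM in WT libraries, against 9.94, 7.78 and 6.22 CPM in Ocln-KO, a log2 fold change of -1.32 (adjusted p = 0.0144 from edgeR). It carries the same uncertainty of shared reads as Scd1 and Scd2. Fads3, the neighbour of Fads2 at 2.7 kb, fell by 0.50 in log2 units (edgeR adjusted p = 0.0200) and was lower in each Ocln-KO library. Cyb5a, the cytochrome b5 that passes electrons to desaturases, fell by 0.51 (adjusted p = 0.0436 from edgeR). Cyb5b, the most abundant of the list, had a log2 fold change of -0.36 and was not called (adjusted p = 0.126 from edgeR). Degs2, a sphingolipid desaturase and hydroxylase, rose from 1.05 ± 0.16 to 3.82 ± 1.61 CPM (SD, n = 3; adjusted p = 0.0332 from edgeR).

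Of the elongation cycle genes besides the members, 1 of 8 tested was called, lower (5.04% of all genes). Log2 fold changes were negative in 4 and positive in 4 of them, with a median of -0.05. At an unadjusted p under 0.05 in edgeR 4 were lower and 2 higher (15.2% and 13.9% of all genes). Hacd2, a dehydratase of the cycle, fell by 0.66 in log2 units (edgeR adjusted p = 0.0294). Tecr, the reductase of the last step and the most abundant gene of the list, had 401 ± 29.5 and 323 ± 32.3 CPM and was not called (adjusted p = 0.107 from edgeR). Of the peroxisomal genes, edgeR and limma-voom each called 1 of 9 and DESeq2 called 2, all lower (5.04%, 5.33% and 8.68% of all genes). Ehhadh, a bifunctional enzyme of beta-oxidation, fell by 0.41 (adjusted p = 0.0448 from edgeR). Scp2, the most abundant, had a log2 fold change of -0.65 (adjusted p = 0.0710 from edgeR, 0.00930 from DESeq2 and 0.0622 from limma-voom).

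Among 16 regulators of lipogenic genes, edgeR called 2 lower and 0 higher (5.04% and 3.91% of all genes). DESeq2 and limma-voom each called 3 lower and 0 higher, against 8.68% and 5.33% of all genes called lower. Thrsp, a nuclear protein tied to lipogenic gene expression, measured 22.0, 21.3 and 23.4 CPM in WT libraries, against 5.80, 6.43 and 4.26 CPM in Ocln-KO. The genotypes lay far apart, and Thrsp fell by 2.02 in log2 units (SE 0.17, edgeR adjusted p = 0.00440). Insig1, which retains the sterol sensor complex in the endoplasmic reticulum, fell by 0.60 (adjusted p = 0.0228 from edgeR). Mid1ip1, a paralog of Thrsp and the most abundant gene of the list, had 565 ± 42.9 and 540 ± 51.0 CPM (adjusted p = 0.735 from edgeR). Srebf1, the sterol regulatory element binding protein of lipogenesis, named here after its values were seen, measured 333, 337 and 385 CPM in WT libraries, against 285, 272 and 248 CPM in Ocln-KO, just above the threshold (adjusted p = 0.0506 from edgeR). Both DESeq2 and limma-voom called Srebf1 lower.

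Marker lists of other cell types are given next, and their part in the values above was not tested. Their counts of calls by edgeR stand against 5.04% of all genes called lower and 3.91% higher, and those at an unadjusted p under 0.05 against 15.2% lower and 13.9% higher. DESeq2 called 8.68% of all genes lower and 1604 of 19680 genes higher. For limma-voom these were 5.33% lower and 729 of 19691 genes higher. No marker was at 0 counts in all 6 libraries. Of 10 adipocyte markers, 8 were tested, 0 were called by edgeR or limma-voom and 1 was called lower by DESeq2, with 3 lower at an unadjusted p under 0.05 and a median log2 fold change of -1.74. Their summed level was 52.3, 60.5 and 60.5 CPM for WT and 45.5, 49.5 and 40.0 CPM for Ocln-KO, of which Plin4 was the most abundant gene. Some of the defining markers are named after their values were seen. Cfd had 105, 177 and 144 counts in WT and 53, 34 and 0 in Ocln-KO. Adipoq had 33, 49 and 25 counts in WT and 17, 3 and 0 in Ocln-KO, and in Ocln-KO replicate 3 Plin1 and Cidec also had 0 counts. Lipe, also named after its values were seen, had a log2 fold change of 0.06.

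Of the clear cell markers 3 of 5 tested were called lower and 0 higher by edgeR (4 lower at an unadjusted p under 0.05). DESeq2 called 4 lower and limma-voom 2. Their sums were 106, 110 and 125 CPM for WT and 69.4, 70.9 and 105 CPM for Ocln-KO, with Car12 the most abundant. Car12 measured 34.6, 34.4 and 37.9 CPM in WT libraries, against 30.7, 36.4 and 56.7 CPM in Ocln-KO (log2 fold change 0.21). The other 4 markers tested had negative log2 fold changes. Macrophage markers had 0 of 7 called by edgeR or limma-voom and 4 called higher by DESeq2, 6 higher at an unadjusted p under 0.05 in edgeR, and sums of 159, 143 and 141 CPM for WT and 168, 209 and 269 CPM for Ocln-KO and Mrc1 the most abundant. Smooth muscle markers had 1 of 5 called higher by edgeR and limma-voom, Myh11, and 3 called higher by DESeq2. Myh11 was the most abundant over all 6 libraries though not in WT, where Acta2 led. In edgeR 5 were higher at an unadjusted p under 0.05, with sums of 1185, 1387 and 1152 CPM for WT and 1568, 2082 and 1735 CPM for Ocln-KO. Basal cell markers had 1 of 5 called higher (2 at an unadjusted p under 0.05), with sums of 228, 216 and 217 CPM for WT and 262, 225 and 264 CPM for Ocln-KO and Itga6 the most abundant over all 6 libraries, although Trp63 led in Ocln-KO. Myelin markers had 1 of 4 tested called higher by edgeR, DESeq2 and limma-voom (1 higher and 1 lower at an unadjusted p under 0.05 in edgeR). DESeq2 also called Pmp22, the most abundant, lower. Their sums were 75.3, 73.8 and 70.0 CPM for WT and 59.8, 69.7 and 72.4 CPM for Ocln-KO.

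Spermatid and sperm markers had 0 of 6 called by edgeR, DESeq2 or limma-voom and 0 at an unadjusted p under 0.05. Their sum was 344, 285 and 282 CPM for WT and 383, 380 and 89.0 CPM for Ocln-KO, with Ocln-KO replicate 3 well below the other libraries, and Odf1 was the most abundant over all 6 libraries, although Smcp led in Ocln-KO. Principal cell and epididymal fluid markers had 2 of 6 tested called higher and 0 lower by edgeR, with 1 lower by DESeq2 (2 higher and 1 lower at an unadjusted p under 0.05 in edgeR), and sums of 29977, 26786 and 25391 CPM for WT and 17829, 32260 and 27591 CPM for Ocln-KO and Crisp1 the most abundant. Gpx5, a secreted peroxidase of the caput, named after its values were seen, measured 54.5, 172 and 26.3 CPM in WT libraries, against 256, 7264 and 10039 CPM in Ocln-KO. Its level differed between libraries of 1 genotype far more than that of any member did, and which share of each library came from which epididymal region was not tested. Of the Ocln-KO libraries, replicate 3 was lowest for 8 of the 10 members, against 37.1% of all genes. In the other lists this ranged from 0 of the 7 macrophage, 5 clear cell and 4 myelin markers tested to 6 of the 6 sperm markers, with 7 of the 8 adipocyte markers (not Plin4) and 7 of the 9 other desaturases and electron donors between.

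**Figure D3:**
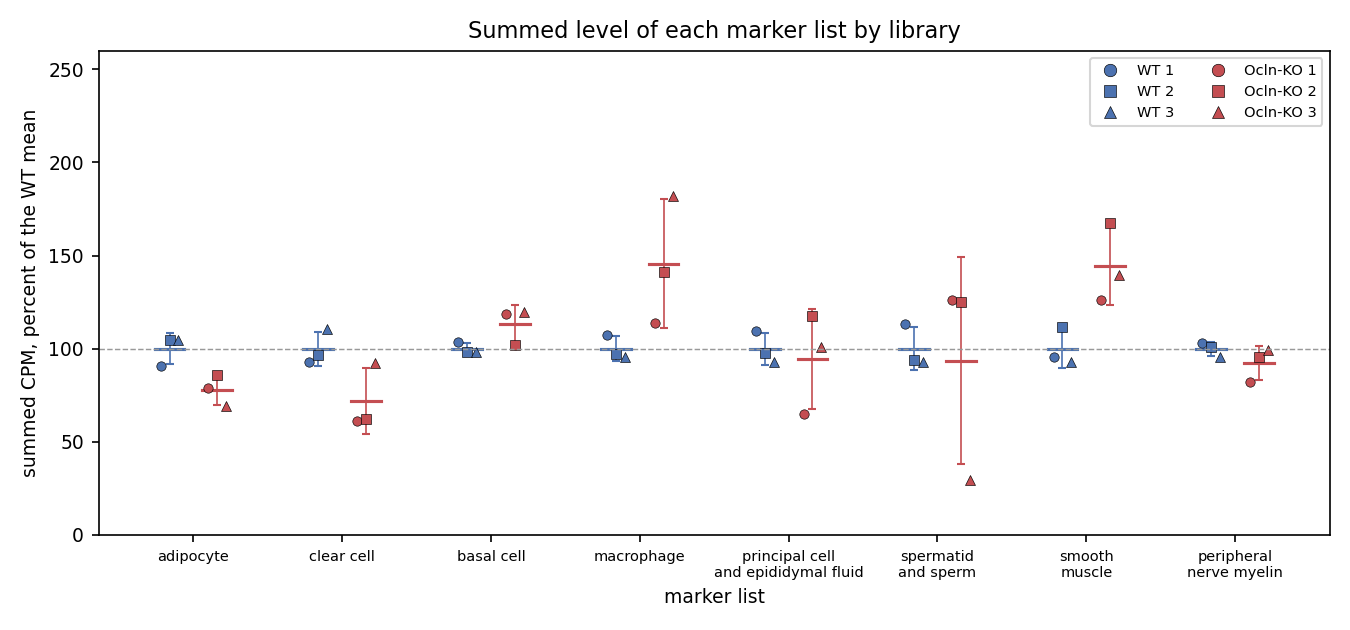
Summed CPM of each marker list in each library as a percentage of its WT mean (vertical axis), by list (horizontal axis), for WT (blue) and Ocln-KO (red), with symbols as replicate, bars as mean and whiskers as 1 SD over 3 libraries. Macrophage and smooth muscle markers lie higher in each Ocln-KO library than in each WT library. Adipocyte and, narrowly, clear cell markers lie lower in each Ocln-KO library, and sperm markers are lowest in Ocln-KO replicate 3.

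**Figure D4:**
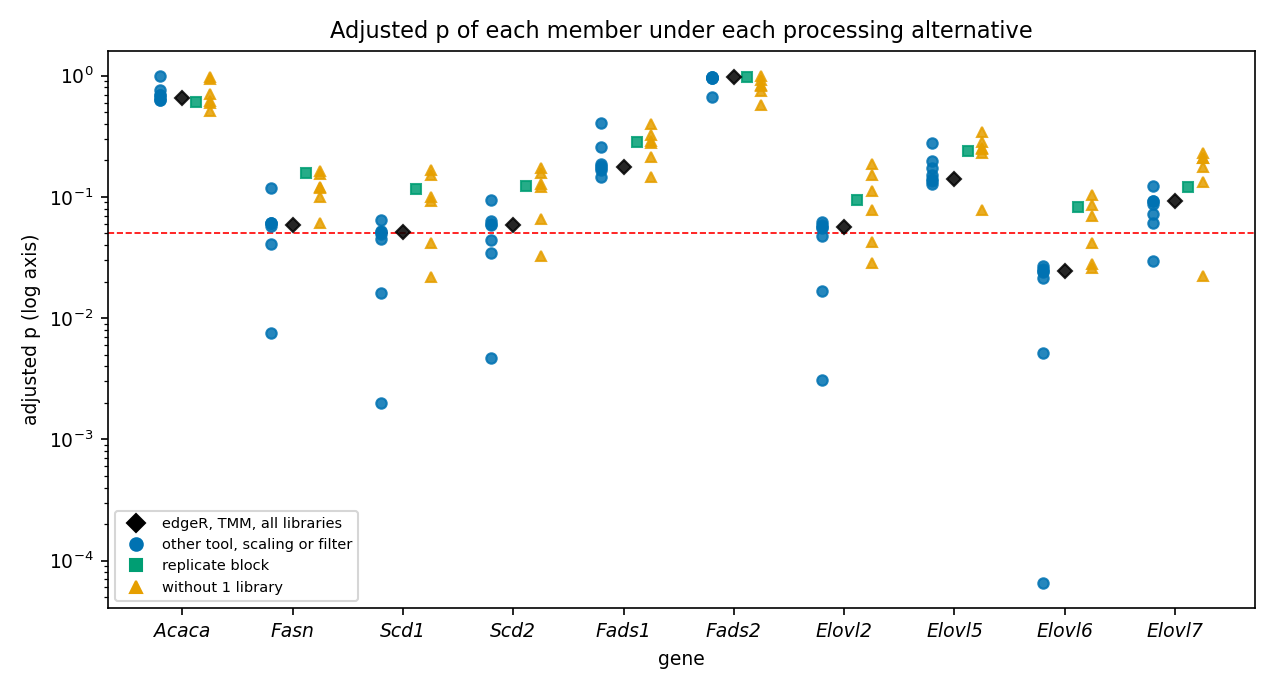
Adjusted p of each of the 10 members (logarithmic vertical axis) by gene (horizontal axis) in edgeR with TMM factors and all libraries (black), other tools, scalings and filters (blue), the replicate block (green) and fits without 1 library (orange). The dashed line is 0.05, and Fasn, Scd1, Scd2, Elovl2, Elovl6 and Elovl7 have points on both sides of it.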

How the data were processed

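Whole epididymis RNA of 3 WT and 3 Ocln-KO libraries was analysed. The authors deposited the raw count of reads per gene, made after alignment with HISAT2 2.0.4 (submitters' processing notes) to GRCm38 and assignment with HTSeq, and stated neither a counting mode nor how reads with several alignments were treated. Columns were matched to samples by name. The software was R 4.3.3, with the packages edgeR (4.0.16), limma (3.58.1) and, as an alternative, DESeq2 (1.42.0). After filterByExpr (minimum count of 10) and TMM scaling, genotypes were tested by glmQLFTest on a glmQLFit model without pairing, and p-values were adjusted by Benjamini-Hochberg over the whole table. The SE was obtained from the log2 fold change and the square root of F. Limits of 3 counts cover counting error only. Named genes are the members, each other pathway gene with an adjusted p under 0.05, and the most abundant gene of each list. The members and lists were chosen with earlier results of these data known. Coordinates and promoters are from RefSeq (GRCm38.p6) and exon lengths from GENCODE. Symbols read as dates or numbers (28 in all) hold no list gene. The fits were tested on simulated data with larger changes than any member showed, which cannot tell how well smaller changes are found. Alternatives were DESeq2, limma-voom, other scalings and filters, the replicate number as a block, the fold change rule of the study and each library left out.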

Additional observations from a re-analysis of the deposited data

How the results depend on the processing

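Ocln was called under each alternative, with log2 fold changes between -2.56 and -2.44 without 1 library. Members called lower numbered 6 in DESeq2 (8.68% of all genes), 5 in limma-voom (5.33%), 4 with no filter beyond 1 count (3.79%), 2 with at least 10 counts in every library (5.74%), 0 with the fold change rule (1.7%) and 0 with the replicate block (0.157%), against 1 (5.04%). Without 1 library they ranged from 0 to 5, and members called higher were 0 throughout, from 0 to 0. All genes called lower numbered 1708 in DESeq2, 335 with the fold change rule and 19 to 944 without 1 library, against 992. All genes called higher numbered 1604 in DESeq2, 1175 with total counts only, 293 with the fold change rule and 4 to 782 without 1 library, against 770. Total counts only thus gave 1175 higher and 674 lower calls, where TMM gave 770 and 992. Other pathway genes called lower numbered 3 with the fold change rule and 1 to 8 without 1 library, against 8, and those called higher numbered 0 in limma-voom and 0 to 2 without 1 library, against 1.

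The methods speak of pairs of mice and do not say what a pair shares, or whether the replicate numbers follow the pairs. Deviations of same-numbered libraries correlated across genes at -0.05, -0.03 and -0.00. Those of libraries with unlike numbers correlated between -0.08 and 0.13. With 3 libraries of each genotype these values cannot decide whether the libraries are paired. With the replicate block, which leaves fewer degrees of freedom, all genes called numbered 31 lower and 10 higher, and other pathway genes 1 lower and 0 higher. Elovl6 then had a log2 fold change of -0.74 and was not called (adjusted p = 0.0821 from edgeR).

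Direction turned for 4 genes, none of them called. With total counts only the log2 fold change was 0.0025 for Acaca, 0.0031 for Acly and 0.021 for Mid1ip1. Without 1 library it ranged from -0.13 to 0.0066 for Acaca, -0.062 to 0.12 for Fads2, -0.18 to 0.072 for Acly and -0.14 to 0.00014 for Mid1ip1. Of 140 member values under alternatives, 112 kept direction and side of the threshold, 19 passed it, 4 lost it and 5 turned. Why the calls fell without a WT library was not tested. No 2 libraries of the same genotype agreed within sampling noise.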
